A study of Homo sapiens with 6 samples.

Results

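The genes described here were 37 genes of protein folding and stress signalling in the endoplasmic reticulum (ER), picked by name: the stress sensors, the ER chaperones and the machinery of ER-associated degradation. They were 37 of the 58735 genes in the deposited table, each matched to 1 row, and 36 of them had enough reads to be tested among 14458 genes. RNA was sequenced from A549, an established cell line of human lung adenocarcinoma, in 3 libraries titled Vector and 3 titled OE_GPX3, which are overexpression (OE) libraries of GPX3, a secreted glutathione peroxidase. The labels give the Vector libraries the genotype and treatment WT and the OE_GPX3 libraries the genotype and treatment OE. The series text concerns GPX3, the small heat shock protein HSPB1 and Hippo signalling in lung adenocarcinoma. It states no question about the ER. The labels do not give the promoter, whether the cells were 1 clone or a pool, or whether replicates came from separate cultures, so the p-values measure only the spread between these libraries, which may be technical.

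The ER lumen is where secreted and membrane proteins fold, helped by chaperones, lectins and enzymes that form disulfide bonds. When unfolded protein builds up, the sensors IRE1 (gene ERN1), PERK (EIF2AK3) and ATF6 signal to the nucleus and the ribosome: IRE1 splices XBP1 mRNA, ATF6 is cut free by Golgi proteases, and PERK slows translation while favouring ATF4. The nuclear factors then raise transcription of chaperones, of degradation genes and of the export machinery, and in secretory lung epithelium this programme scales folding capacity with secretion.

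Many of these genes are known targets of the response through short promoter elements, so the letters that ATF6, XBP1 and NF-Y recognise are shown before the values. Promoter windows from RefSeq (GRCh38.p14), from 250 bases before to 50 bases after each annotated start, matched 33 of the 37 genes by symbol. They were searched on both strands for the ER stress response element ERSE (CCAAT, any 9 bases, then CCACG), for ERSE-II (ATTGG, any 1 base, then CCACG), for the unfolded protein response element UPRE (TGACGTGG) and for the CARE element bound by ATF4 (TGATGNAAN). ERSE was found in 8 of the 33 genes (24.2%), against 25 of all 27305 genes with a window (0.0916%). The 8 genes encode the chaperones HSPA5 and HSP90B1, the lectins CALR and CANX, the isomerase PDIA6, the secreted factor CRELD2, the oxidase ERO1B and the transcription factor XBP1. The sites of 6 of them follow, on the gene's own strand and 5′ to 3′, with 20 bases on each side. Capitals mark the CCAAT and CCACG boxes, which read ATTGG and CGTGG where the element is reversed.
HSPA5, chr9:125241371-125241429, minus strand: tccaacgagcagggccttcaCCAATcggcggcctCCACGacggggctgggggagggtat
HSP90B1, chr12:103930196-103930254, plus strand: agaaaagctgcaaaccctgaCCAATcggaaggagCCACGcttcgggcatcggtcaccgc
PDIA6, chr2:10812833-10812891, minus strand: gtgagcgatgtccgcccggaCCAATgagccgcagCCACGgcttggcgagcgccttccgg
XBP1, chr22:28800583-28800641, minus strand: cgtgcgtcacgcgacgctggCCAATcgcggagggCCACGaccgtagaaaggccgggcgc
CALR, chr19:12938364-12938422, plus strand: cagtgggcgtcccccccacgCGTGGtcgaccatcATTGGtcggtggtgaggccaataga
CRELD2, chr22:49918534-49918592, plus strand: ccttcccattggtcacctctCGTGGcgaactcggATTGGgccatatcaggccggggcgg

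ERSE-II, in which the same boxes lie in the opposite arrangement 1 base apart, was found in 3 of the 33 genes (9.09%) and in 19 of all 27305 (0.0696%). These were HERPUD1, a membrane protein of the degradation complex, SDF2L1, a cofactor of the HSPA5 chaperone cycle, and HYOU1, the nucleotide exchange factor of HSPA5.
HERPUD1, chr16:56932005-56932055, plus strand: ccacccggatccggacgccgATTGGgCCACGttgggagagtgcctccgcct
SDF2L1, chr22:21642094-21642144, plus strand: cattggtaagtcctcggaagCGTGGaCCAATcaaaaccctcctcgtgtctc
HYOU1, chr11:119057254-119057304, minus strand: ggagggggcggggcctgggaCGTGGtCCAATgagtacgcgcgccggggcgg
HYOU1 also held the only UPRE among the genes, overlapping its other ERSE-II, against 253 of all 27305 genes (0.927%). HERPUD1 also held the only CARE, against 1215 of all genes (4.45%). The window of ERN1, the sensor that alone passed the test below, held 1 CCAAT box, no CCACG box and none of the 4 elements. A match describes these letters and does not show that a factor was bound. The genes were picked by name and many are known targets through such elements. The shares with an element therefore describe the set and do not test it.

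Levels are given as CPM (counts scaled to library size and between libraries by the TMM method) to compare libraries, and as the deposited FPKM, which divides by gene length, to compare genes. Total counts ran from 15831693 to 18751815 per library. GPX3 itself was at 36, 33.8 and 39.6 CPM in Vector and at 1311, 1031 and 1361 CPM in OE_GPX3, which matches the labels. The OE_GPX3 replicate 1 library stood apart from the others of its group: the chi-square per degree of freedom of its counts was 20.9 against replicate 2 and 15.4 against replicate 3, where the other 4 within-group pairs lay between 7.55 and 9.92. Counts of 6 genes listed as epithelial summed to 20600 to 22900 CPM in Vector and 23700 to 31900 CPM in OE_GPX3. KRT8 and KRT18 made up most of that sum. KRT8, KRT18 and KRT19 were higher in OE_GPX3 without overlap, while EPCAM, CDH1 and the mesenchymal cadherin CDH2 overlapped between groups. By contrast, 6 lung lineage markers summed to between 1.13 and 1.91 CPM in all 6 libraries, with SFTPA1 and SCGB1A1 at 0. The 9 markers of other cell types summed to between 3.96 and 7.52 CPM, the highest single value being 6.73 CPM for COL1A1. The part of these marker differences in the results was not tested. In bulk RNA, fewer cells with a transcript and less transcript per cell cannot be told apart.

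By FPKM averaged over the 6 libraries, the highest were P4HB (222), CALR (222), HSPA5 (125), CANX (96.1) and PDIA4 (93.6), which are isomerases, lectins and the main HSP70 chaperone of the ER. The sensors were lower than these, with ATF6B at 11.2, ATF6 at 4.76, ERN1 at 3.23 and EIF2AK3 at 1.33 FPKM. Other folding genes were as low, such as CRELD2 at 9.06 and DNAJB9 at 4.18 FPKM, and the lowest tested gene was EDEM3, a mannosidase-like degradation factor, at 0.941 FPKM. DERL3, a derlin typical of secretory tissue, had 0 counts in all 6 libraries, where 3 counts would be between 0.154 and 0.195 CPM. The 37 genes together took 0.582%, 0.532% and 0.559% of the scaled counts in Vector and 0.645%, 0.598% and 0.566% in OE_GPX3, so the groups overlapped (0.558% ± 0.0246 against 0.603% ± 0.0397, SD, n = 3 each). Genes with an ERSE or ERSE-II had a median of 51.9 FPKM (11 genes) and those without either had 7.22 FPKM (22 genes).

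**Figure D1:**
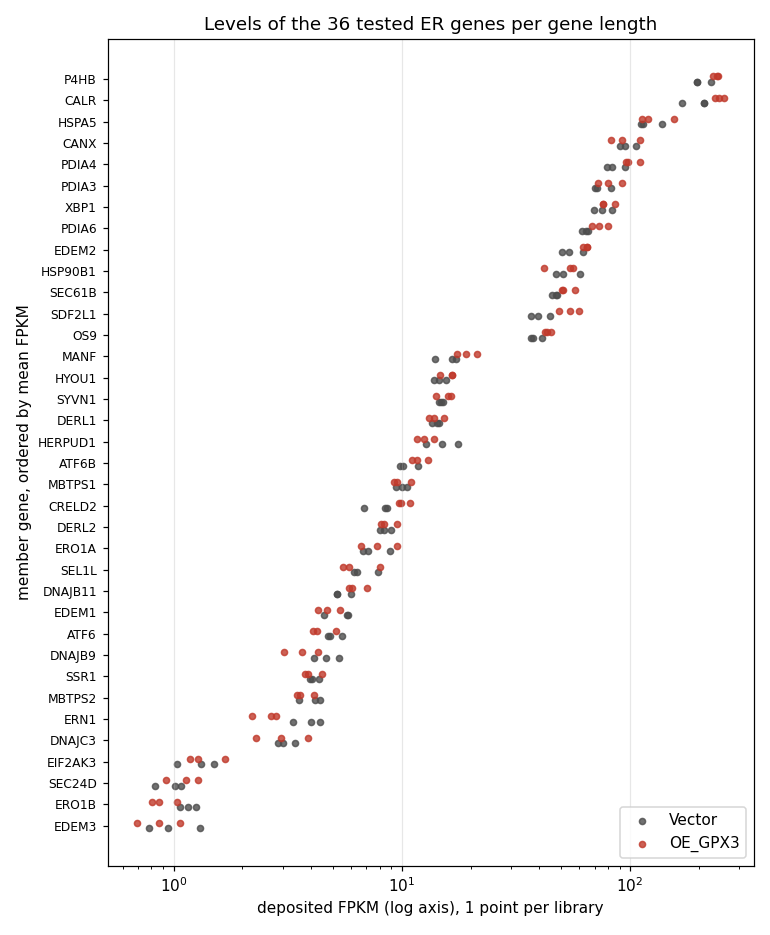
Deposited FPKM on a log axis for the 36 tested genes, ordered by their mean, with 1 point per library, coloured by group. P4HB and CALR sit highest at 222 FPKM on average, EDEM3 lowest at 0.941 FPKM, and the groups lie close together for most genes.

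A single gene of the set was called by edgeR. ERN1, encoding IRE1, the kinase and endoribonuclease that splices XBP1 mRNA, fell 1.54-fold in the OE_GPX3 libraries (edgeR adjusted p = 0.0225). None was called higher by edgeR (0 of 36), although 5 were higher and 3 lower at an unadjusted p under 0.05. Over all 14458 genes, 38 passed an adjusted p of 0.05 (0.263%), 14 of them higher (0.0968%) and 24 lower (0.166%), so 1 of 36 (2.78%) is a single call against that background. At an unadjusted p under 0.05 the share was 8 of 36 (22.2%), against 14.6% over all genes (6.83% higher and 7.76% lower). DESeq2 called 2 of the 36, ERN1 lower and the cochaperone gene SDF2L1 higher, against 116 of the 9693 genes to which it gave an adjusted p (1.2%). By limma on log2(FPKM + 1) 0 members and 4 of 10814 genes (0.037%) were called. For 31 of the 36 genes (86.1%) the 95% interval of the fold change lay within 1.5-fold in either direction, which held for 63.9% of all genes. The exceptions were ERN1, SDF2L1, DNAJB9, ERO1B and EDEM3. Fold changes below are log2 of OE_GPX3 over Vector, with the 95% interval in brackets.

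ERN1 lies at chr17:64039142-64130819 on the minus strand in the deposited annotation (hg38, ENSG00000178607). It stood at 36.7, 48.1 and 43.6 CPM in Vector and at 30.7, 23.8 and 28.9 CPM in OE_GPX3 (42.8 ± 5.74 against 27.8 ± 3.56, SD, n = 3 each). Every OE_GPX3 value was below every Vector value. In FPKM the group means were 3.89 and 2.56. Its log2 fold change was -0.62 (SE 0.13, [-0.88, -0.36], edgeR adjusted p = 0.0225), and by p it ranked 12 of the 14458 genes. The direction was the same in all 19 settings tried, while the call was kept in 11. The largest rise in its edgeR adjusted p came without Vector replicate 2, the library with the highest ERN1 value (-0.53, adjusted p = 0.574). It was also lost without Vector replicate 3 (-0.60, 0.0749), OE_GPX3 replicate 2 (-0.51, 0.107) or OE_GPX3 replicate 3 (-0.64, 0.0837). Without OE_GPX3 replicate 1 it was kept at -0.70 (adjusted p = 7.21e-05).

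The other sensors did not pass the test. ATF6, a membrane-bound transcription factor, was at 38.7, 43.5 and 37.8 CPM in Vector and at 33.7, 40.6 and 32.2 CPM in OE_GPX3, with overlapping groups (-0.17 [-0.42, 0.07], edgeR adjusted p = 0.510). Its relative ATF6B was at 37.4, 35.9 and 42.9 CPM against 40.4, 42.3 and 47.0 CPM, again overlapping (0.16 [-0.08, 0.40], edgeR adjusted p = 0.532). ATF6B overlaps the gene TNXB, and the sources used here do not say whether counting used strand. EIF2AK3, encoding the kinase PERK, was at 8.30, 5.71 and 7.21 CPM against 9.20, 6.96 and 6.36 CPM, with a wide interval at these low counts (0.09 [-0.28, 0.47], edgeR adjusted p = 0.844).

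Next in the pathway come the proteases that cut ATF6 and the transcript that IRE1 splices. XBP1, the transcription factor made from the spliced mRNA, was at 215, 255 and 229 CPM in Vector and 262, 229 and 229 CPM in OE_GPX3. The groups overlapped (0.04 [-0.17, 0.25], edgeR adjusted p = 0.873). Gene counts do not separate spliced from unspliced XBP1, so IRE1 activity was not measured. The Golgi proteases MBTPS1 and MBTPS2 had log2 fold changes of -0.03 and -0.12, with intervals of [-0.24, 0.19] and [-0.37, 0.12].

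HERPUD1 and DNAJB9 are widely used as transcripts of the activated response, HERPUD1 in the degradation complex and DNAJB9 as the cochaperone that holds IRE1 inactive. HERPUD1 was at 66.7, 92.3 and 78.1 CPM in Vector and at 60.8, 64.3 and 70.8 CPM in OE_GPX3. Only the highest OE_GPX3 library exceeded the lowest Vector library (-0.28 [-0.51, -0.04], unadjusted p = 0.0229, edgeR adjusted p = 0.277). DNAJB9 was at 11.9, 15.3 and 13.3 CPM against 10.4, 12.2 and 8.63 CPM, overlapping in 1 library of each group (-0.37 [-0.70, -0.05], unadjusted p = 0.0248, edgeR adjusted p = 0.283). ERN1, HERPUD1 and DNAJB9 were thus the 3 genes lower at an edgeR unadjusted p under 0.05 (8.33%, against 7.76% of all genes). The 5 higher ones (13.9%, against 6.83% of all genes) were SDF2L1, CRELD2, CALR, MANF and PDIA4. In each of the 3 lower genes Vector replicate 2 held the highest value. Over the 36 genes Vector replicate 2 was the highest of the 6 libraries in 5 (13.9%), against 18.1% of all genes. Without that library HERPUD1 was at -0.15 (edgeR adjusted p = 0.789) and DNAJB9 at -0.27 (0.752). DNAJB9 overlaps PNPLA8 (log2 fold change -0.27) and THAP5 (-0.09).

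**Figure D2:**
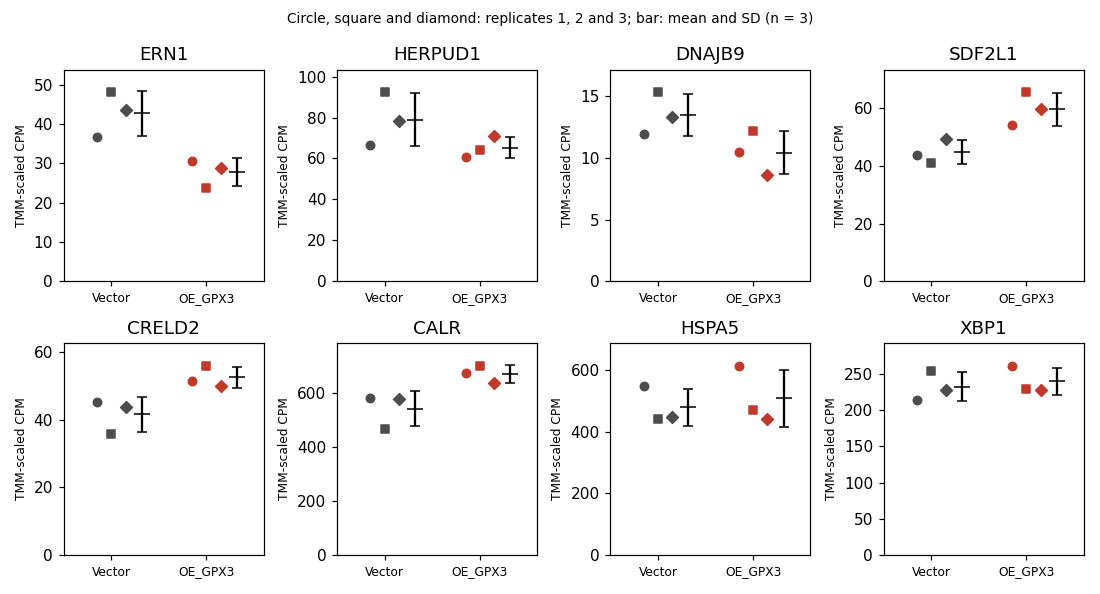
CPM in each library for selected genes of the set, Vector and OE_GPX3 side by side, with a symbol for each replicate and a bar with the group mean and SD. ERN1 is the gene called lower, from 42.8 to 27.8 CPM on average, while HSPA5 and XBP1 overlap between groups.

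The general chaperones did not pass the test. HSPA5 (BiP), the HSP70 that binds unfolded chains and keeps the sensors inactive, was at 548, 441 and 449 CPM in Vector and at 614, 470 and 440 CPM in OE_GPX3 (0.08 [-0.15, 0.32], edgeR adjusted p = 0.765). In both groups replicate 1 was well above the other libraries, and without OE_GPX3 replicate 1 the value was -0.08. HSP90B1 (GRP94), the ER HSP90, was at 288, 226 and 240 CPM against 266, 256 and 197 CPM (-0.07 [-0.30, 0.16], edgeR adjusted p = 0.810). The groups of both genes overlapped, and both intervals included 0. HYOU1 was at 0.11 [-0.11, 0.32].

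SDF2L1 was the nearest to a call on the higher side. It was at 44.0, 41.1 and 49.5 CPM in Vector and at 54.1, 65.5 and 59.6 CPM in OE_GPX3 (44.8 ± 4.25 against 59.7 ± 5.73, SD, n = 3 each). The groups did not overlap, and the log2 fold change was 0.41 (SE 0.11, [0.18, 0.65], edgeR adjusted p = 0.108). DESeq2 called it (0.43, adjusted p = 0.0457), and so did edgeR without OE_GPX3 replicate 1 (0.48, adjusted p = 0.00624). That edgeR fit called 657 genes over all, against 38 in the main fit. SDF2L1 was called in 3 of the 19 settings, and its highest adjusted p over the edgeR, DESeq2 and limma fits was 0.672. After the GC correction it was at 0.24 (edgeR adjusted p = 0.440). DNAJB11, an HSP40 cochaperone of HSPA5, was at 34.9, 30.1 and 30 CPM against 40.7, 33.5 and 34.6 CPM, with overlap (0.20 [-0.05, 0.44], edgeR adjusted p = 0.450). DNAJB11 overlaps the gene TBCCD1. DNAJC3, which restrains PERK, was at -0.03 [-0.35, 0.28].

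Among the lectins that hold glycoproteins in the folding cycle, CALR was at 580, 466 and 576 CPM in Vector and at 672, 700 and 634 CPM in OE_GPX3. All 3 OE_GPX3 values were above all Vector values (0.31 [0.09, 0.52], edgeR adjusted p = 0.184). Its membrane-bound counterpart CANX was at 671, 597 and 566 CPM against 697, 577 and 511 CPM, with full overlap (-0.04 [-0.26, 0.19], edgeR adjusted p = 0.892). Both windows hold an ERSE.

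The protein disulfide isomerases, which make and reshuffle disulfide bonds, all had positive log2 fold changes (4 of 4, median 0.19, against 47.4% of all genes). Vector replicate 2 was the lowest of the 6 libraries in 4 of 4, against 16.2% of all genes. OE_GPX3 replicate 1 was the highest in 3 of 4, against 17.7%. None passed the test by edgeR (0 of 4), DESeq2 (0 of 4) or limma on FPKM (0 of 4). By edgeR PDIA4 alone had an unadjusted p under 0.05. PDIA4 was at 318, 263 and 274 CPM in Vector and at 364, 319 and 312 CPM in OE_GPX3, where only the highest Vector library reached into the other group (0.22 [0.01, 0.43], edgeR adjusted p = 0.333). PDIA6 was at 272, 255 and 265 CPM against 331, 300 and 277 CPM, with no overlap (0.20 [-0.01, 0.40], edgeR adjusted p = 0.365). P4HB, which is also a subunit of collagen prolyl hydroxylase, was at 1062, 1058 and 1203 CPM against 1237, 1283 and 1273 CPM, likewise without overlap (0.19 [-0.02, 0.40], edgeR adjusted p = 0.385). PDIA3, which works with the lectins, was at 0.11 [-0.11, 0.33] and has a pseudogene, PDIA3P1, counted at 12.2 and 11.9 CPM in the 2 groups. The oxidases that recharge the isomerases were at 0.06 [-0.20, 0.32] for ERO1A and -0.38 [-0.77, 0.01] for ERO1B. ERO1B stood at 6.83, 5.81 and 6.24 CPM against 4.65, 5.55 and 4.28 CPM, without overlap (edgeR adjusted p = 0.354), and overlaps the gene GPR137B.

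CRELD2 and MANF are small proteins retained in the ER or secreted under stress. CRELD2 was at 45.1, 35.7 and 43.8 CPM in Vector and at 51.4, 56.0 and 50.1 CPM in OE_GPX3, with no overlap (0.34 [0.10, 0.57], edgeR adjusted p = 0.184). It overlaps ALG12, which had a log2 fold change of 0.12. MANF was at 41.9, 33.6 and 39.6 CPM against 51.1, 45.4 and 41.4 CPM, overlapping by 1 library (0.26 [0.02, 0.50], edgeR adjusted p = 0.311).

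In ER-associated degradation, EDEM2, one of the factors that trim mannose from misfolded glycoproteins, was at 98.3, 105 and 120 CPM in Vector and at 125, 120 and 124 CPM in OE_GPX3 (0.19 [-0.02, 0.40], edgeR adjusted p = 0.395). EDEM1 and EDEM3 were at -0.19 [-0.44, 0.07] and -0.23 [-0.62, 0.17]. OS9, the lectin that hands clients to the ligase, was at 0.16 [-0.04, 0.37], with no overlap between groups. The ligase SYVN1, its partner SEL1L and the derlins DERL1 and DERL2 lay between -0.09 for SEL1L and 0.05 for SYVN1. SYVN1 overlaps FAU, a gene several times more abundant. Of the translocation and export genes, SEC61B of the translocon was at 0.16 [-0.06, 0.38] with no overlap, SEC24D of the COPII coat at 0.18 [-0.16, 0.51] and SSR1 at -0.04 [-0.27, 0.19]. Of these 12 tested degradation, translocation and export genes, HERPUD1 alone had an unadjusted p under 0.05 by edgeR, and neither edgeR nor DESeq2 called any.

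**Figure D3:**
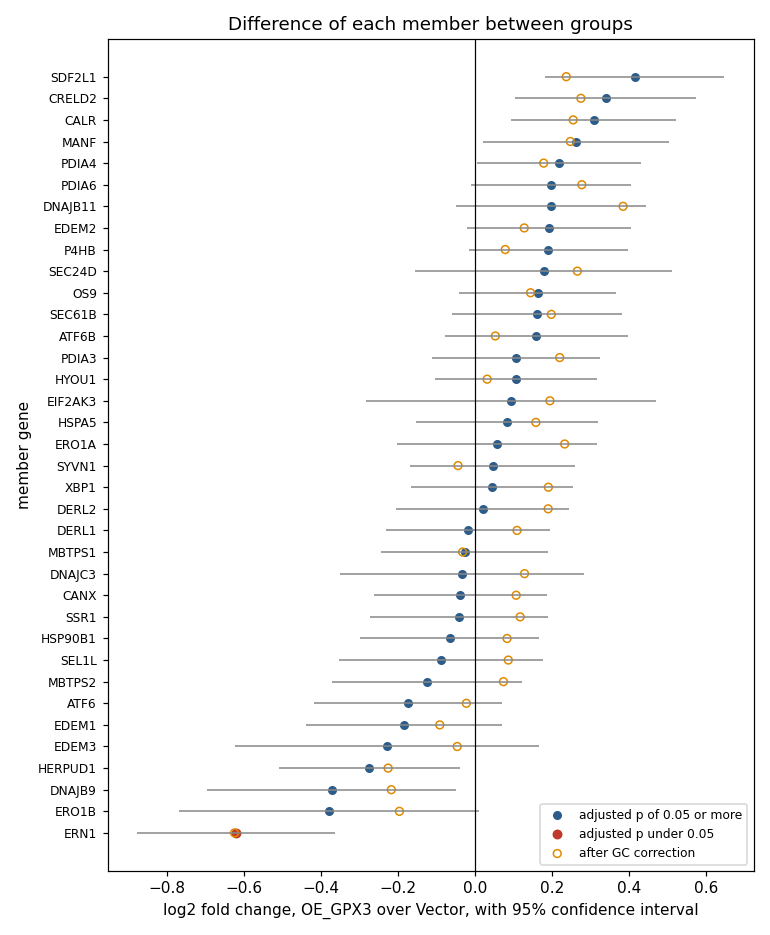
Log2 fold change of OE_GPX3 over Vector with its 95% interval (edgeR) for the 36 tested genes in order of size, with open circles after the GC correction and a vertical line at no difference. ERN1 at -0.62 is the called gene, and SDF2L1 at 0.41 is the highest.

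Over the set, 21 of 36 genes (58.3%) had a log2 fold change above 0, against 47.4% of all genes tested. The median was 0.05 (quartiles -0.07 and 0.18), against -0.02 (-0.18 and 0.14) over all genes. That median turned to -0.01 with scaling by total counts alone and to -0.02 without OE_GPX3 replicate 1, where 16 of 36 were above 0. The groups did not overlap in 9 genes (25%), against 18.5% of all genes. Of these, ERN1 and ERO1B were lower, and SDF2L1, CRELD2, CALR, PDIA6, P4HB, OS9 and SEC61B were higher (7 of 36, 19.4%, against 8.62% of all genes higher and 9.9% lower). In the 11 genes with an ERSE or ERSE-II, 7 were above 0 and 4 below, with a median of 0.08 and a range of -0.38 to 0.41. In the 22 without either, 12 were above 0 and 10 below, with a median of 0.03.

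Single libraries and base composition moved with these values. OE_GPX3 replicate 1 was the highest of the 6 libraries in 19 of the 36 genes (52.8%), against 17.7% of all genes, and Vector replicate 2 the lowest in 12 (33.3%), against 16.2%. Both replicate 1 libraries were the highest of their own group in 16 genes (44.4%), against 18.9%. The heat map of single libraries shows this in HSPA5, PDIA3 and CANX. Transcript GC content had a Spearman correlation of 0.526 with the log2 fold change across 14450 genes and of 0.596 across the 36, all taken from the same 6 libraries. The 21 genes above 0 had a median GC of 51.6% and the 15 below 0 one of 41.2%. After a correction for GC the median of the set was 0.12, with 27 of 36 above 0. Among the related lists described below, medians also rose for folding enzymes (0.07, 25 of 34 above 0), degradation (0.03, 19 of 31), translocon (0.10, 23 of 32) and COPII (0.12, 21 of 23). They did not rise for regulators (0.08, 15 of 21) or PERK and ATF4 output (-0.71, 1 of 13). The share of all genes above 0 under this correction is not given. No member was then called by edgeR (0 of 36, against 4 over all genes), with 11 at an unadjusted p under 0.05. Under the GC correction ERN1 stayed at -0.63 (edgeR adjusted p = 0.0674), HERPUD1 was at -0.23, DNAJB9 at -0.22, SDF2L1 at 0.24 and CALR at 0.25, while PDIA6 was at 0.28 and DNAJB11 at 0.38. Beyond these values, the part of library and GC in the differences was not tested.

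**Figure D4:**
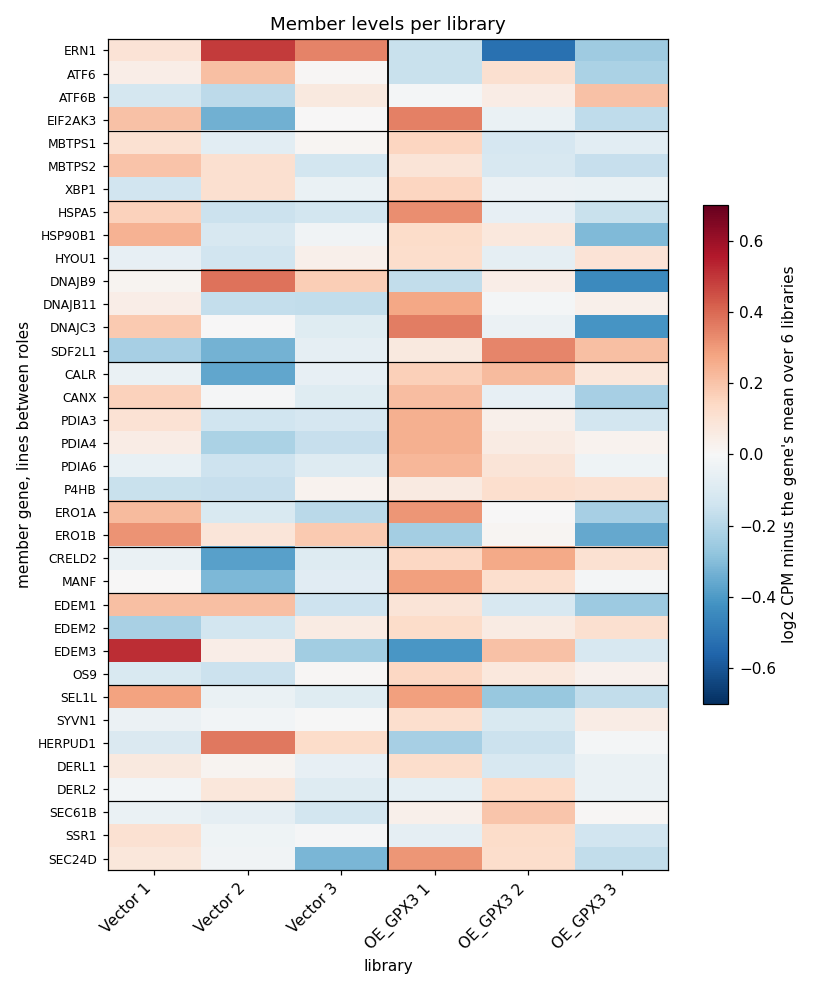
Each gene's log2 CPM minus its mean over the 6 libraries, with libraries in columns and genes in rows by role. OE_GPX3 replicate 1 is the highest library for 19 of the 36 genes, and ERN1 separates the groups in the opposite direction from SDF2L1 and CALR.

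Other genes around the ER were read from 6 lists of 159 genes, 154 of them tested. The lists, like the set, were written with earlier results of these data known. Their counts beside the shares of all genes therefore describe these genes and do not test them. The list of PERK and ATF4 output, the branch that slows translation and induces stress genes, held the only calls by edgeR, 2 of 13 (15.4%, against 0.263% of all genes), both lower. PPP1R15A (GADD34), which recruits the phosphatase that reopens translation, was at 56.7, 82.0 and 73.8 CPM in Vector and at 38.6, 49.8 and 49.9 CPM in OE_GPX3. It fell by 0.62 on the log2 scale ([-0.88, -0.36], edgeR adjusted p = 0.0253). CEBPG, a bZIP partner of ATF4, was at 58.0, 83.1 and 58.4 CPM against 43.0, 43.9 and 46.2 CPM and fell by 0.59 ([-0.84, -0.34], edgeR adjusted p = 0.0255). For both genes every OE_GPX3 value was below every Vector value. Vector replicate 2 was the highest of the 6 libraries in 12 of the 13 genes of the list (92.3%), against 18.1% of all genes. Without Vector replicate 2 neither was called (edgeR adjusted p = 0.619 and 0.624), and the list's median moved from -0.62 to -0.44. In the list 12 of 13 genes were below 0, the exception being CEBPB at 0.18, against 47.4% of all genes above 0, and 7 of 13 had an unadjusted p under 0.05, against 14.6% of all genes. Both counts include EIF2S1, which encodes the substrate of PERK and is not an output gene (-0.27, edgeR unadjusted p = 0.0183). DESeq2 called 3 of the 13, all lower, against 1.2% of all genes. These were PPP1R15A, CEBPG and ATF3, the last at -1.30 by edgeR (edgeR adjusted p = 0.0517). DDIT3 and ATF4 are named after their values were seen. DDIT3 had the largest value of the list, -1.54 (edgeR adjusted p = 0.273), and ATF4 was at -0.34 (0.431). ERN2, a relative of ERN1 that was also on this list, was not tested. EIF2AK3, which encodes PERK, had a log2 fold change of 0.09. PERK activity was not measured, and its part in the values of this list was not tested.

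The remaining 5 lists had no call by edgeR. Their counts stand against 47.4% of all genes above 0, 14.6% at an unadjusted p under 0.05 and 1.2% called by DESeq2. Of 34 other chaperones and folding enzymes, 17 were above 0 (median 0.01), 10 had an unadjusted p under 0.05 and DESeq2 called 1. That was PPIB, an ER cyclophilin (0.35, edgeR adjusted p = 0.125), and CLGN, a lectin related to CANX, was next by p (-0.72, 0.169). TXNDC5, named after its values were seen, had the largest value of that list, 1.13, with means of 4.81 and 10.3 CPM and an unadjusted p of 0.136. Of 31 other degradation genes, 13 were above 0 (median -0.05), 8 had an unadjusted p under 0.05 and DESeq2 called 0, with the ligases RNF139 at -0.36 (edgeR adjusted p = 0.174) and RNF5 at 0.32 (0.205). Of 32 translocon, signal peptidase and glycosylation genes, 14 were above 0 (median -0.01), 2 had an unadjusted p under 0.05 and DESeq2 called 0, with SSR4 at 0.27 (edgeR adjusted p = 0.260) and SRP54 at -0.27 (0.317). Of 23 genes of COPII export and KDEL retrieval, 15 were above 0 (median 0.02), 4 had an unadjusted p under 0.05 and DESeq2 called 1, the cargo receptor gene TMED9 (0.37, edgeR adjusted p = 0.113), with SURF4 at 0.25 (0.259). Of 21 other transcription factors and regulators, not all of them specific to the response, 14 were above 0 (median 0.08). In this list 2 had an unadjusted p under 0.05 and DESeq2 called 0. CREB3L1 was at 0.53 (edgeR adjusted p = 0.184) and SCAP at 0.25 (0.277). Without OE_GPX3 replicate 1, edgeR called 3, 4, 1, 2 and 0 genes in these 5 lists in the order given, and 5 in the PERK and ATF4 list. Calls over all genes also rose in that fit, from 38 to 657.

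**Figure D5:**
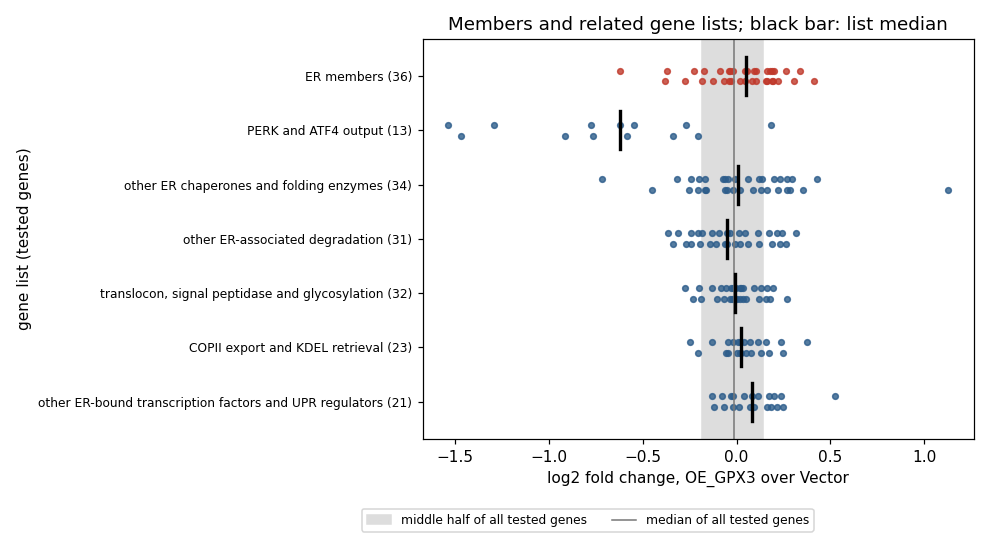
Log2 fold change of OE_GPX3 over Vector for each tested gene of the set and of the 6 lists, with the median of each. The PERK and ATF4 output list has a median of -0.62, and the medians of the set and of the 5 other lists lie between -0.05 and 0.08.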

How the data were processed

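The authors deposited gene counts and FPKM values for 6 libraries, per the file headers, and the build was hg38, as the submitters' processing notes list it. The sources used here name no aligner, counter or strand setting. The labels' protocol describes small RNA libraries, but nuclear protein-coding genes took 91.1% to 92.5% of the counts and small RNA genes 0.0061% to 0.0105%. Counts were tested with edgeR 4.0.16 (R 4.3.3; robust quasi-likelihood test, TMM scaling, filterByExpr with a minimum count of 10 and a minimum total of 15), with Benjamini-Hochberg adjustment over 14458 genes and a threshold of 0.05. The script was tested on simulated data. FPKM was used to compare genes and, in limma 3.58.1, as an alternative with a pseudocount of 1 or 0.1. DESeq2 1.42.0, other scalings, no filter, a replicate block, a correction for transcript GC and leaving out each library were the other alternatives. The members and lists were chosen with earlier results of these data known. Values in every library are given for the sensors, XBP1, HSPA5, HSP90B1, HERPUD1, DNAJB9, every called gene and the 10 further genes with the smallest p, CANX being added after its values were seen; from each list the called genes and the 2 with the smallest p are named, and GPX3 is named whatever its value. Of the members, 12 overlap another counted gene of at least 1 CPM.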

Additional observations from a re-analysis of the deposited data

How the results depend on the processing

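ERN1 was below 0 in all 19 settings, and 21 of the 36 tested members kept their sign in every setting that gave a value. Counts of calls moved more. Over all genes, 38 calls became 68 with total counts alone (13 higher and 55 lower, against 14 and 24), 116 with DESeq2, 129 without the filter on low counts, 4 with the GC correction, 4 with limma on log2(FPKM + 1), 4 with log2(FPKM + 0.1) and 1 with FPKM unfiltered. Leaving out 1 library gave 1 to 657 calls (4 without Vector replicate 2, 116 without Vector replicate 1, 1, 12 and 657 without OE_GPX3 replicates 2, 3 and 1). Member calls went from 1 to 2 with DESeq2, to 0 with the GC correction and to 0, 0 and 0 with the 3 FPKM fits, and ranged from 0 to 2 over the left-out libraries. List calls went from 2 to 5 with DESeq2, 4 without the filter, 1 with the GC correction and 0, 0 and 0 with FPKM, and from 0 to 15 over the left-out libraries, 0 without Vector replicate 2 or OE_GPX3 replicate 2, 1 without OE_GPX3 replicate 3, 8 without Vector replicate 1 and 15 without OE_GPX3 replicate 1. ERN1 lost its call with the GC correction alone and with FPKM (edgeR or limma adjusted p from 0.0674 to 0.55), and its adjusted p ranged from 7.21e-05 to 0.574 over all settings.

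Small member values changed sign. With the GC correction MBTPS2 was at 0.0734, HSP90B1 at 0.0828, DNAJC3 at 0.13, CANX at 0.11, SEL1L at 0.086, SYVN1 at -0.0445, DERL1 at 0.11 and SSR1 at 0.12. With total counts alone XBP1 was at -0.016, ERO1A at -0.0018, SYVN1 at -0.012 and DERL2 at -0.043, and with upper-quartile scaling DERL2 was at -0.0067. Over the left-out libraries EIF2AK3 ranged from -0.0813 to 0.22, MBTPS1 from -0.11 to 0.034, XBP1 from -0.023 to 0.11, HSPA5 from -0.0758 to 0.19, HSP90B1 from -0.15 to 0.0677, DNAJC3 from -0.25 to 0.14, CANX from -0.17 to 0.0695, ERO1A from -0.10 to 0.19, EDEM3 from -0.39 to 0.0012, SEL1L from -0.28 to 0.035, SYVN1 from -0.0033 to 0.12, DERL1 from -0.0886 to 0.04, DERL2 from -0.0398 to 0.0662 and SSR1 from -0.11 to 0.023. The cause was not tested.

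Replicate numbers appear in both groups, but the labels do not say that they mark a shared culture or day. For that reason the libraries were not treated as paired. The correlation of deviations from the group means was 0.246, 0.0196 and 0.154 for numbers 1, 2 and 3. Vector replicates 1 and 3 each correlated best with the OE_GPX3 library of their own number. Vector replicate 2 correlated best with OE_GPX3 replicate 3 (0.0384). These values do not settle whether the libraries were paired. With the replicate block 231 genes were called (141 higher and 90 lower), 2 members (ERN1 and SDF2L1, the latter at 0.41, adjusted p = 0.0415) and 9 list genes. With the block and the GC correction together ERN1 was called (-0.62, adjusted p = 0.0286), as were 6 list genes, and MBTPS2 was at 0.0689, HSP90B1 at 0.0834, DNAJC3 at 0.11, CANX at 0.10, SEL1L at 0.0721, SYVN1 at -0.0478, DERL1 at 0.11 and SSR1 at 0.12. The largest standard errors were those of EDEM3 (0.195), ERO1B (0.192) and EIF2AK3 (0.186), the 3 tested members with the lowest CPM.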
